A study of Mus musculus with 12 samples.

Results

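Aldehyde dehydrogenases (Aldh genes) and aldo-keto reductases (Akr genes) were followed in a mouse model of oral cancer recurrence on Illumina mouse WG-6 v2 arrays. The 10 genes were Aldh3a1, Aldh1a1, Aldh1a3, Aldh2, Aldh3a2, Akr1c12, Akr1c13, Akr1c18, Akr1b3 and Akr1b8. They were chosen from expression values measured on these same 12 arrays, so the differences between groups given for them are a description and are not used as evidence. All probes carrying one of these symbols in the platform annotation were taken, which gave 14 of 45135 probes for 9 of the 10 genes. Akr1b3, which encodes aldose reductase, is not named by the annotation used here, and no value is given for it. The groups were 5 recurrent tumors, 5 primary tumors and 2 samples of cultured SCC-7 cells, a murine squamous cell carcinoma line. Primary tumors had been raised by injecting SCC-7 cells into the floor of the mouth of BALB/c-nu mice, a strain that lacks a thymus. Recurrent tumors grew locally after a primary tumor had been removed by microsurgery, and each came from the same animal as the primary tumor of its number. All tumors therefore descend from 1 cell line, and the tumor samples also hold host cells. Age of the animals and the slide of each array are not given in the sources used here.

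Aldehyde dehydrogenases oxidise reactive aldehydes to carboxylic acids with NAD or NADP, and aldo-keto reductases reduce aldehydes and ketones to alcohols with NADPH. Aldehydes arise from lipid peroxidation, alcohol, drugs and vitamin A, so both families serve detoxification as well as the making of signals such as retinoic acid. Several members are known targets of NRF2, the transcription factor of the antioxidant response, and aldehyde dehydrogenase activity is widely used as a label of stem-like cells in squamous cell carcinoma.

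Akr1c12 and Akr1c13, hydroxysteroid and carbonyl reductases, lie in 1 gene cluster on mouse chromosome 13. The 250 bases before a start site of each are shown because these promoters differ at few positions, whereas the Akr1c12 probe was detected on 12 arrays and the Akr1c13 probe on 0. The annotated Akr1c13 gene begins at base 4191168, so the last bases of its window lie within the gene. Both windows are from RefSeq on build GRCm38.p6, 5′ to 3′ on the strand of the gene, and capitals mark bases without an equal partner in the other promoter.
Akr1c12, chr13:4279400-4279649, minus strand: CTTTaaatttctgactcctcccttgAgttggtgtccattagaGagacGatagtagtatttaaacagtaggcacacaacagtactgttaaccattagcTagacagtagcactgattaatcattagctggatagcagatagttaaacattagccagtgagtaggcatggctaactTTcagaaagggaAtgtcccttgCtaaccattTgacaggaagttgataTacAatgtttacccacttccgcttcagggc
Akr1c13, chr13:4190937-4191186, plus strand: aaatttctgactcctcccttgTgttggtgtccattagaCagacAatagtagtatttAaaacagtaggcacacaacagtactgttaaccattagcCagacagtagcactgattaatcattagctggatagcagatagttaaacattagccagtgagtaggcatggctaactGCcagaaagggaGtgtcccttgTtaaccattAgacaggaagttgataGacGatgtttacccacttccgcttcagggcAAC
In the alignment of the pair, 235 of 246 positions (95.5%) were equal. RefSeq promoters were at hand for 6 of the 10 genes (Aldh1a1, Aldh3a2, Akr1b8, Akr1c12, Akr1c13 and Akr1c18). The core of the antioxidant response element, searched as TGACNNNGC on both strands, had 0 matches in the windows of these 6 genes, and 10.2% of all 32851 promoter windows of the same length held it.

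Levels are given as log2 of the bead intensity after background correction and quantile normalization, and detection on an array means that under 1 in 100 of its negative control probes were as bright. Of the 14 probes, 6 were detected on at least 2 arrays and entered the tests, as did 18454 of all 45135 probes. They stood for 5 genes, Aldh3a1, Aldh2, Aldh3a2, Akr1c12 and Akr1b8. The other 8 probes, which included all probes of Aldh1a1, Aldh1a3, Akr1c13 and Akr1c18, were not above the negative controls on any of the 12 arrays. A gene with several tested probes is represented by the brightest of them.

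Over all 18454 probes, recurrent and primary tumors did not separate. In limma with the animal as a block, 0 probes (0%) passed an adjusted p of 0.05, the smallest adjusted p was 0.933, and 602 probes had an unadjusted p under 0.05. For contrasts with SCC-7 cells a call needed a 2-fold difference as well as an adjusted p under 0.05. By this rule 6.86% of probes were higher in recurrent tumors than in the cultured cells and 5.02% lower, and for primary tumors the shares were 6.64% and 5.74%. The split depended on scaling, since 1266 higher and 927 lower calls in recurrent tumors became 1505 and 307 with median scaling, and 1225 higher and 1059 lower calls in primary tumors became 1378 and 358. The median difference over all probes was -0.11 in recurrent and -0.15 in primary tumors relative to SCC-7 cells with quantile normalization, and 0.14 and 0.089 with median scaling. Primary tumor 3 stood apart by its T and NK cell markers (mean log2 intensity 10.09, against 6.71 to 7.48 in recurrent tumors, at most 7.14 in the other primary tumors and 5.54 to 5.62 in SCC-7 cells), and pair 1 by salivary gland markers (5.51 in recurrent tumor 1, the lowest of all arrays, and 13.94 in primary tumor 1, the highest). Where a value of a member turned on these arrays it is given without them as well. Of 10 squamous epithelial markers, 4 were detected on at least 2 arrays. Krt14 was detected in 4 recurrent tumors, 3 primary tumors and both SCC-7 samples and Trp63 in 0, 2 and 2 of them, whereas Krt6a, Krt16, Sfn, Dsg3 and Perp were not among the tested genes, so the squamous label rests on few markers here.

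Aldh3a1, which oxidises aromatic and medium-chain aldehydes and is abundant in the cornea, was the member with the large difference between tumors and cultured cells. Its log2 intensity was 10.73, 11.02, 10.44, 7.46 and 10.28 in recurrent tumors 1 to 5, 9.32, 10.27, 8.58, 10.12 and 6.97 in primary tumors 1 to 5, and 14.69 and 14.79 in the SCC-7 samples. Every tumor of both groups lay below both SCC-7 samples, while recurrent and primary tumors overlapped. On the scale of the deposited bead intensity, before correction, the probe read 238 to 2205 in recurrent tumors, 168 to 1563 in primary tumors, and 25880 and 28206 in SCC-7 cells. It was detected on all 12 arrays, so none of these levels is a bound set by the background. On the SCC-7 arrays 25 and 14 probes were brighter, up to 32476 and 34588, and saturation of the probe was not tested.

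Aldh3a1 averaged 9.99 ± 1.44 in recurrent tumors (SD, n = 5), 9.05 ± 1.35 in primary tumors (SD, n = 5) and 14.74 ± 0.069 in SCC-7 cells (SD, n = 2). The difference from SCC-7 cells was -4.75 ± 0.97 (SE) in recurrent tumors, or 27-fold lower, and -5.69 ± 0.97 (SE) in primary tumors, or 51.5-fold lower. Both were called in the fit over all probes (adjusted p = 0.00693 and 0.00243 in limma). Without SCC-7 sample 1 or 2, the recurrent tumors were no longer called (adjusted p = 0.0762 and 0.08), at differences of -4.80 and -4.70, and the primary tumors still were (adjusted p = 0.0381 and 0.0409). Nothing in the labels says that the 2 SCC-7 samples came from separate cultures, and the spread between them may be technical. In single tumors the level was 13.1-fold to 156-fold below the SCC-7 mean in the recurrent group and 22.2-fold to 219-fold below it in the primary group. Of the 6 tested member probes 0 were called higher. The Aldh3a1 probe was the 1 called lower in each contrast, as were 5.02% of all tested probes in recurrent and 5.74% in primary tumors. It was also the 1 probe of 6 whose tumors all lay below both SCC-7 samples, a pattern that 31.8% of all tested probes had for recurrent and 29.4% for primary tumors.

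**Figure D1:**
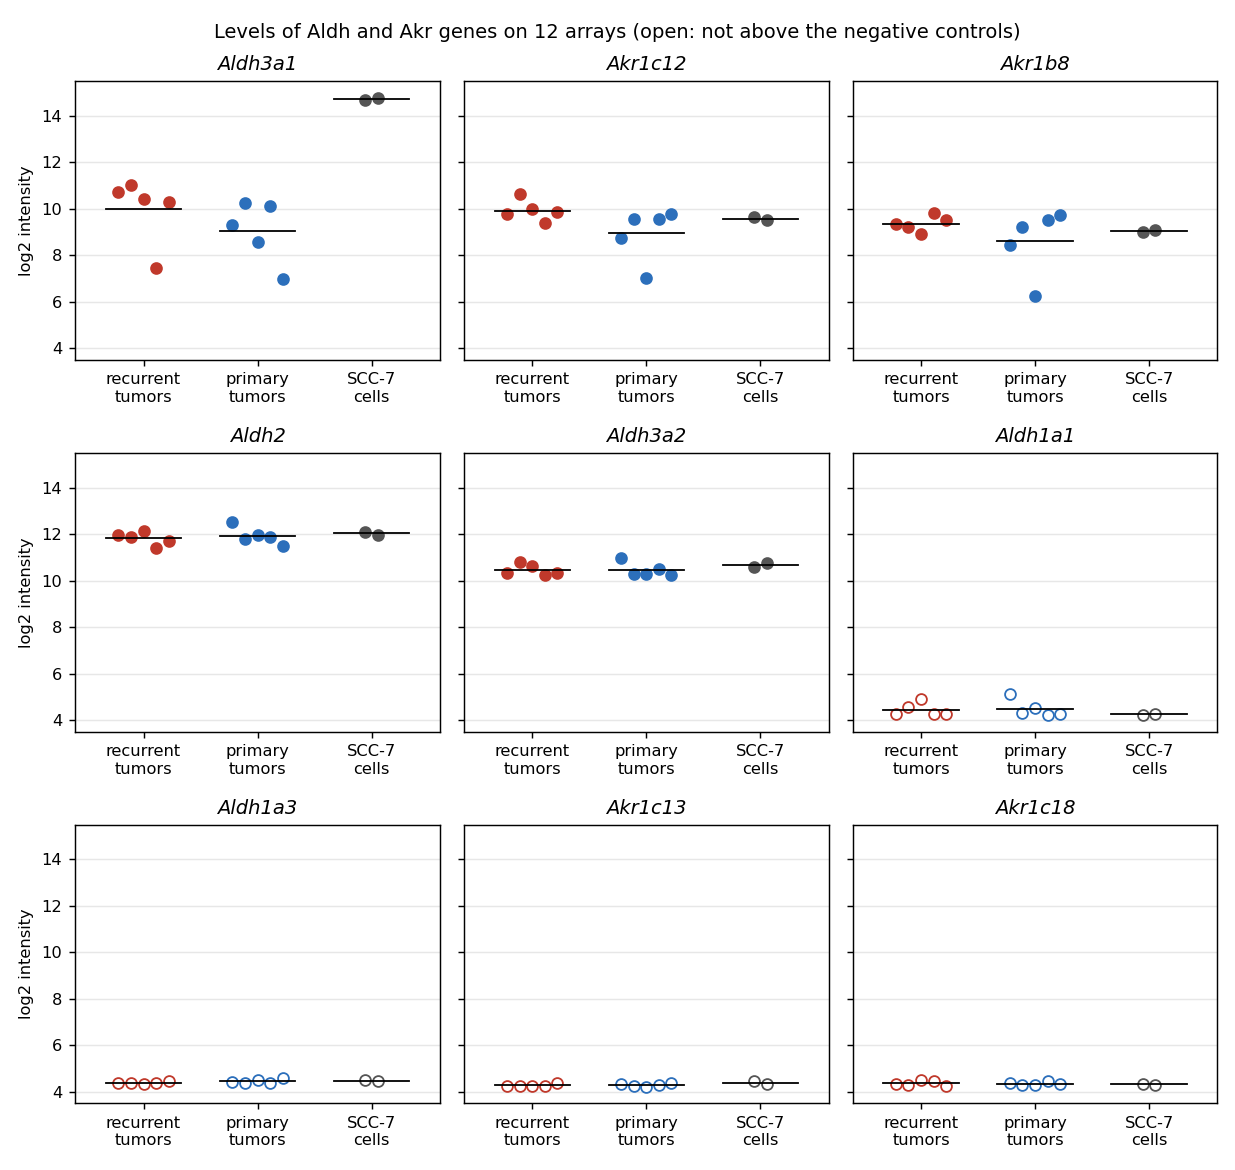
Log2 intensity (vertical axis, the same for all panels) of the 9 Aldh and Akr genes with a probe, in 5 recurrent tumors, 5 primary tumors and 2 samples of SCC-7 cells. Each point is 1 array, lines are group means and open points are not above the negative controls. For Aldh3a1 the SCC-7 points lie at 14.69 and 14.79 and all tumors at or below 11.02, and 4 genes have open points on all 12 arrays.

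In bulk tissue, fewer cells of a type and less RNA per cell cannot be told apart, and macrophage and most endothelial markers were higher in tumors. Among all tested probes, 6.86% were called higher in recurrent and 6.64% in primary tumors. The mean log2 intensity of 7 macrophage markers was 10.81 to 11.00 in recurrent tumors, 8.64 to 10.79 in primary tumors, and 6.32 and 6.43 in SCC-7 cells, with 7 of 7 called higher in recurrent and 6 of 7 in primary tumors. That of 8 endothelial markers was 7.26 to 7.75 in recurrent tumors, 7.36 to 7.86 in primary tumors, and 5.39 and 5.50 in SCC-7 cells, and 6 of 8 were called higher in each tumor group. Kdr (-0.70 and -0.70) and Cd34 (-0.53 and -0.98) of this list went the other way, not called. In each tumor group 3 of 7 fibroblast and pericyte, 1 of 5 T and NK cell and 1 of 4 adipocyte markers were called higher. Of the neutrophil, skeletal muscle and salivary gland markers 0 were called. The part of these host cells in the Aldh3a1 difference was not tested. The levels of Aldh2, Aldh3a2, Akr1c12 and Akr1b8 in tumors overlapped those of SCC-7 cells, and which cells of the tumors made them was not measured.

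Among tumors, Aldh3a1 spread over 4.06 log2 units. Recurrent tumor 4 (7.46) lay far below the next recurrence (10.28), and primary tumors 3 and 5 (8.58 and 6.97) were the lowest of their group. Recurrent minus primary tumor was 1.40, 0.76, 1.86, -2.67 and 3.32 in pairs 1 to 5, so it was higher in 4 of 5 recurrences. The mean of these, 0.93 ± 0.78 (SE), did not pass (adjusted p = 0.933 in limma), and without pair 4 it was 1.83 and without pair 5 it was 0.34. The order of the group means was SCC-7 cells, recurrent tumors and primary tumors from high to low, and the tumor groups did not differ beyond their spread.

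The genes with the pattern most like Aldh3a1 were Xdh, Cstdc4 and Alk, found by Pearson correlation of log2 intensity over the 12 arrays among 10341 tested genes. The coefficients were 0.960, 0.938 and 0.928 over 12 arrays and 0.852, 0.757 and 0.714 over the 10 tumors alone. The 12 arrays share the step between tumors and cultured cells that chose these genes, so the differences that follow are a description. Xdh, xanthine dehydrogenase of purine breakdown, had 8.45 to 10.01 in recurrent tumors, 7.98 to 9.36 in primary tumors, and 11.56 and 11.58 in SCC-7 cells, and its differences from SCC-7 cells were -2.25 ± 0.41 and -2.94 ± 0.41 (SE). Cstdc4, a gene of the cystatin family, differed by -2.60 and -3.14, and Alk, a receptor tyrosine kinase, by -2.55 and -3.09, in recurrent and primary tumors. Cstdc4 was detected in 4 recurrent and 2 primary tumors and Alk in 4 and 1, so many of their tumor values lie at background.

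**Figure D2:**
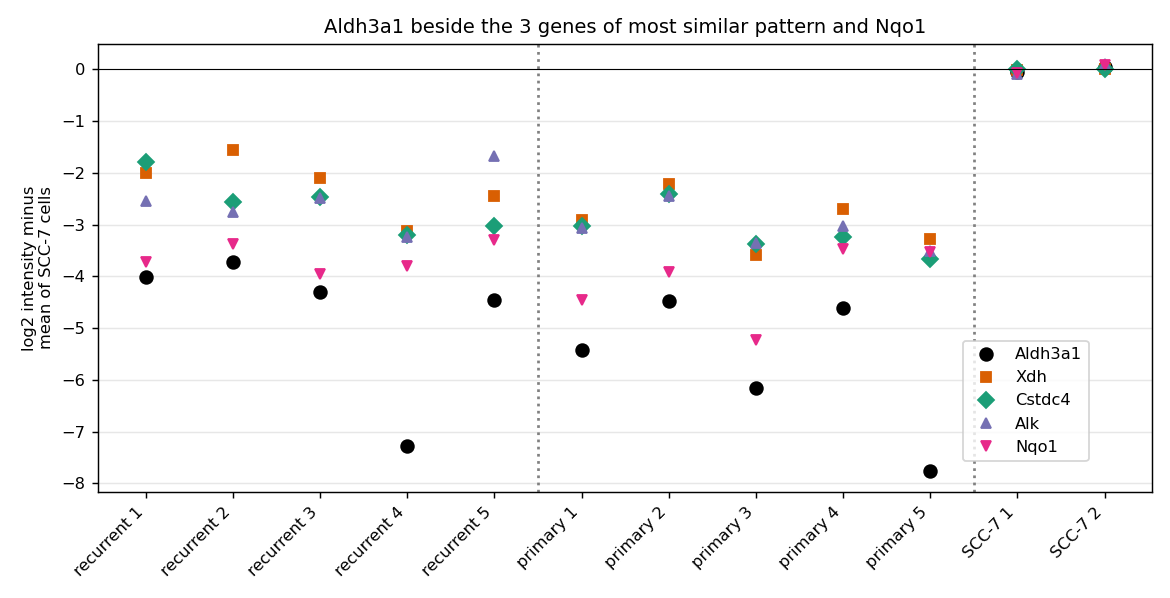
Log2 intensity of Aldh3a1, of the 3 genes with the most similar pattern and of Nqo1 on each of 12 arrays, minus the mean of the 2 SCC-7 samples. All 5 genes lie below 0 in all 10 tumors, and Aldh3a1 reaches its lowest values in recurrent tumor 4 and primary tumor 5.

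Aldh3a2, fatty aldehyde dehydrogenase, lies beside Aldh3a1 on chromosome 11 and showed no such difference. Its log2 intensity was 10.33, 10.80, 10.64, 10.22 and 10.31 in recurrent tumors, 10.99, 10.28, 10.28, 10.52 and 10.24 in primary tumors, and 10.60 and 10.75 in SCC-7 cells. The 3 groups overlapped, with primary tumor 1 the highest array. Differences from SCC-7 cells were -0.21 ± 0.24 (SE) in recurrent and -0.21 ± 0.24 (SE) in primary tumors, and recurrent minus primary tumors was -0.0031 ± 0.21 (SE). The second tested probe gave -0.06, -0.13 and 0.068 for the same 3 contrasts, and the other 2 of its 4 probes were not detected on any array. Without pair 1 the difference between recurrent and primary tumors was 0.16.

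Aldh2, the mitochondrial enzyme that clears acetaldehyde, was detected on all 12 arrays at similar levels. Recurrent tumors had 11.97, 11.89, 12.14, 11.42 and 11.72, primary tumors 12.51, 11.80, 11.98, 11.88 and 11.47, and SCC-7 cells 12.09 and 11.97. The groups overlapped, and the highest value again was that of primary tumor 1. The difference from SCC-7 cells was -0.20 ± 0.27 (SE) in recurrent and -0.10 ± 0.27 (SE) in primary tumors. Recurrent minus primary tumors was -0.10 ± 0.18 (SE) with all pairs and 0.01 without pair 1.

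Akr1c12 was detected on all 12 arrays. Its log2 intensity was 9.76, 10.62, 9.99, 9.39 and 9.87 in recurrent tumors, 8.74, 9.54, 7.04, 9.57 and 9.78 in primary tumors, and 9.64 and 9.53 in SCC-7 cells. Recurrences and SCC-7 cells overlapped, and primary tumor 3 was far below all other arrays. Recurrent minus primary tumor was 1.02, 1.07, 2.94, -0.18 and 0.082 in pairs 1 to 5, higher in 4 of 5 recurrences. The mean of 0.99 ± 0.44 (SE) had an unadjusted p of 0.0629 and an adjusted p of 0.933 in limma. Without pair 3 it was 0.50. Against SCC-7 cells, recurrent tumors differed by 0.34 ± 0.61 (SE) and primary tumors by -0.65 ± 0.61 (SE), or by -0.18 without primary tumor 3. The probe of Akr1c13, whose promoter is shown above, was not detected on any of the same arrays. Transcripts of near copies can share a probe, so which member of the cluster the Akr1c12 probe read is uncertain. Akr1c18, which inactivates progesterone as a 20alpha-hydroxysteroid dehydrogenase and lies in the same cluster, was also not detected.

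Akr1b8, an aldose reductase relative first known as a growth factor responsive protein of fibroblasts, behaved like Akr1c12 in primary tumor 3. Recurrent tumors had 9.33, 9.20, 8.90, 9.80 and 9.53, primary tumors 8.43, 9.21, 6.25, 9.53 and 9.73, and SCC-7 cells 8.99 and 9.08. Only primary tumors 1 and 3 were below the range of the other 10 arrays. Recurrent minus primary tumor was 0.90, -0.017, 2.64, 0.27 and -0.20 in pairs 1 to 5. The mean of 0.72 ± 0.42 (SE) had an adjusted p of 0.933 in limma, and it was 0.24 without pair 3. Differences from SCC-7 cells were 0.31 ± 0.73 (SE) in recurrent tumors and -0.41 ± 0.73 (SE) in primary tumors, or 0.19 in primary tumors without number 3. Several lists had an extreme tumor level in primary tumor 3, among them the T and NK cell (10.09) and neutrophil (8.36) lists with their highest. The macrophage list (8.64) and the cell cycle list (8.76) had their lowest tumor level there. For the cell cycle list recurrent tumors had 9.74 to 10.37 and the other primary tumors 8.79 to 10.34, with primary tumor 1 at 8.79. The part of any of these in the low Akr1c12 and Akr1b8 values was not tested.

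**Figure D3:**
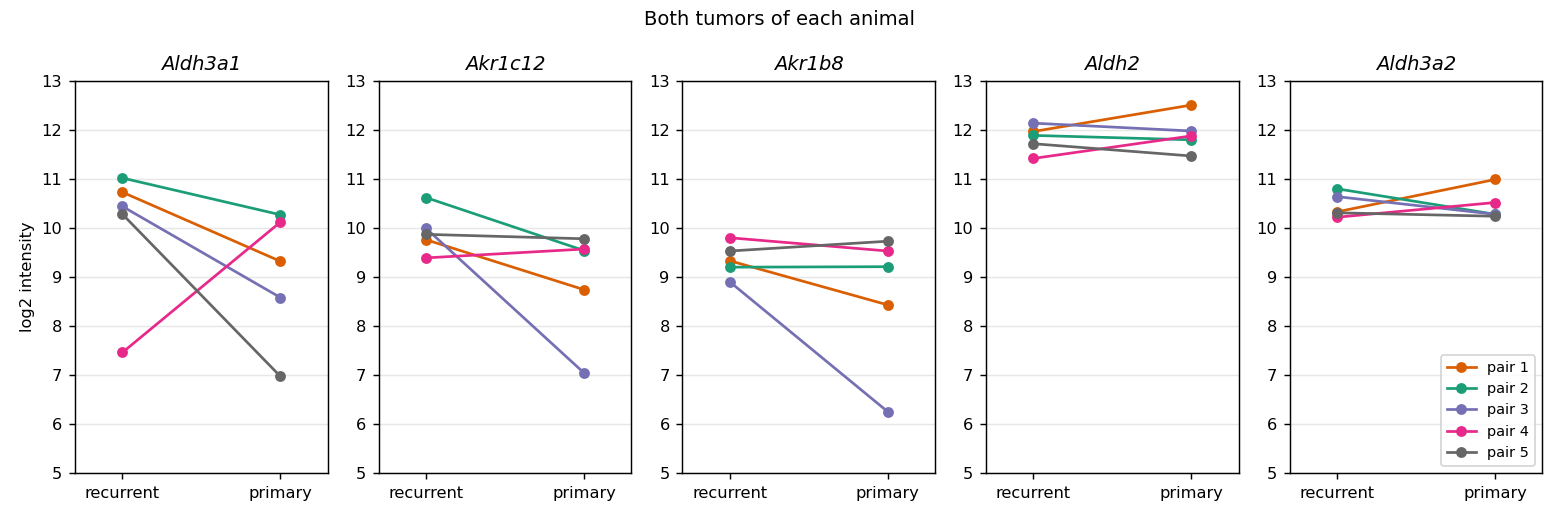
Log2 intensity of the 5 tested genes in the recurrent tumor (left) and the primary tumor (right) of each animal, with 1 line per animal. Aldh3a1 is higher in 4 of 5 recurrences and lower in that of pair 4, and for Akr1c12 and Akr1b8 the steepest line is pair 3, whose primary tumor has 7.04 and 6.25.

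The patterns most like Akr1c12 were those of Ott, Ube2e3 and Msantd4, with r of 0.981, 0.971 and 0.968 over 12 arrays and 0.923, 0.888 and 0.944 over 11 arrays without primary tumor 3. For Akr1b8 they were Tmem237, Gpx8 and Plec, with 0.989, 0.985 and 0.982 over 12 arrays and 0.936, 0.914 and 0.915 without primary tumor 3. All 6 genes had their lowest value in primary tumor 3, and 0 of 6 were called in any contrast. Akr1c12 and Akr1b8 had both traits, and the genes were chosen for likeness to them, so this is a description. The coefficients without primary tumor 3 are those of genes chosen with it included. Ube2e3 encodes a ubiquitin-conjugating enzyme, Gpx8 a peroxidase of the endoplasmic reticulum and Plec the cytoskeletal linker plectin.

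Aldh1a1 and Aldh1a3, which make retinoic acid from retinaldehyde, were not detected in any tumor or in SCC-7 cells, and neither was Aldh1a2, another retinaldehyde dehydrogenase, on either of its 2 probes. The 8 undetected probes of the members had log2 intensities of 4.20 to 5.11 and deposited bead intensities of 48.97 to 79.07, in the range of the negative controls. The highest of these values belonged to Aldh1a1, at 5.11 in primary tumor 1 and 4.92 in recurrent tumor 3. Aldh1a3 was read by 3 probes, and none passed on any array. Arrays give no bound finer than the background, so low expression is not told apart from none.

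Beyond the members, 26 other Aldh and Akr genes are named on the array and 14 were tested. Among all tested probes, 5.02% were called lower and 6.86% higher in recurrent tumors, and 5.74% and 6.64% in primary tumors. At such shares, few or no calls among so few genes say little about the families. None of the 10 other Aldh genes was called lower in either tumor group and none higher in recurrent tumors, while Aldh5a1, the mitochondrial succinate semialdehyde dehydrogenase of GABA breakdown, was called higher in primary tumors. Its level was 5.90, 6.63, 6.94, 8.05 and 6.26 in recurrent tumors, 8.47, 5.97, 7.35, 5.76 and 7.93 in primary tumors, and not above the negative controls in SCC-7 cells. All tumors lay above both SCC-7 samples. Against the dimmest detected probes of the SCC-7 arrays it was at least 2.11-fold higher in recurrent tumors (adjusted p = 0.0599 in limma, not called) and at least 2.67-fold higher in primary tumors (adjusted p = 0.0346 in limma). Each adjusted p is that of the fitted difference from the measured SCC-7 values (4.42-fold and 5.59-fold), which is larger than the bound. The call in primary tumors was near the threshold. Without primary tumor 1 it was at least 2.11-fold higher (adjusted p = 0.0496 in limma), and the call was lost without primary tumor 5 (adjusted p = 0.0572), without either SCC-7 sample (0.206 and 0.186), with the authors' normalized values (0.0842), with no background correction (0.0838) and with no filter on dim probes (0.0784). A second tested Aldh5a1 probe, also not detected in SCC-7 cells, was not called. Over all 10 genes the median difference was 0.16 in recurrent tumors and 0.40 in primary tumors. For the 5 of them that were detected in SCC-7 cells it was 0.0047 and 0.041 (-0.037 without primary tumor 1). Over all probes, detected in SCC-7 cells or not, it was -0.11 and -0.15 (0.14 and 0.089 with median scaling).

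Primary tumor 1 had the highest value of all 12 arrays for Aldh3b2 (8.05), Aldh6a1 (8.23) and Aldh5a1 (8.47), as it had for Aldh2 and Aldh3a2. In recurrent tumor 1 of the same animal they were 4.27, 5.22 and 5.90. The mean level of the 10 other Aldh genes was 7.05 to 7.59 in recurrent tumors, 8.31 in primary tumor 1, 7.03 to 7.43 in the other primary tumors, and 6.82 and 6.91 in SCC-7 cells. Marker lists of other cell types were also highest in primary tumor 1, with mean levels of 13.94 for salivary gland (5.51 in recurrent tumor 1), 8.15 for adipocytes (5.95) and 7.86 for squamous epithelium (4.45), and their part in these values was not tested. Among the 4 other Akr genes none was called, a count too small to set against the shares over all probes. Akr7a5, an aflatoxin aldehyde reductase, was lower than in SCC-7 cells in all tumors on each of its 3 probes, and the brightest gave -0.57 ± 0.17 (SE) in recurrent and -0.64 ± 0.17 (SE) in primary tumors (adjusted p = 0.0349 and 0.0225 in limma), which is under 2-fold. Akr1cl was detected on 1 array, primary tumor 3, at 7.29, and was not tested.

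**Figure D4:**
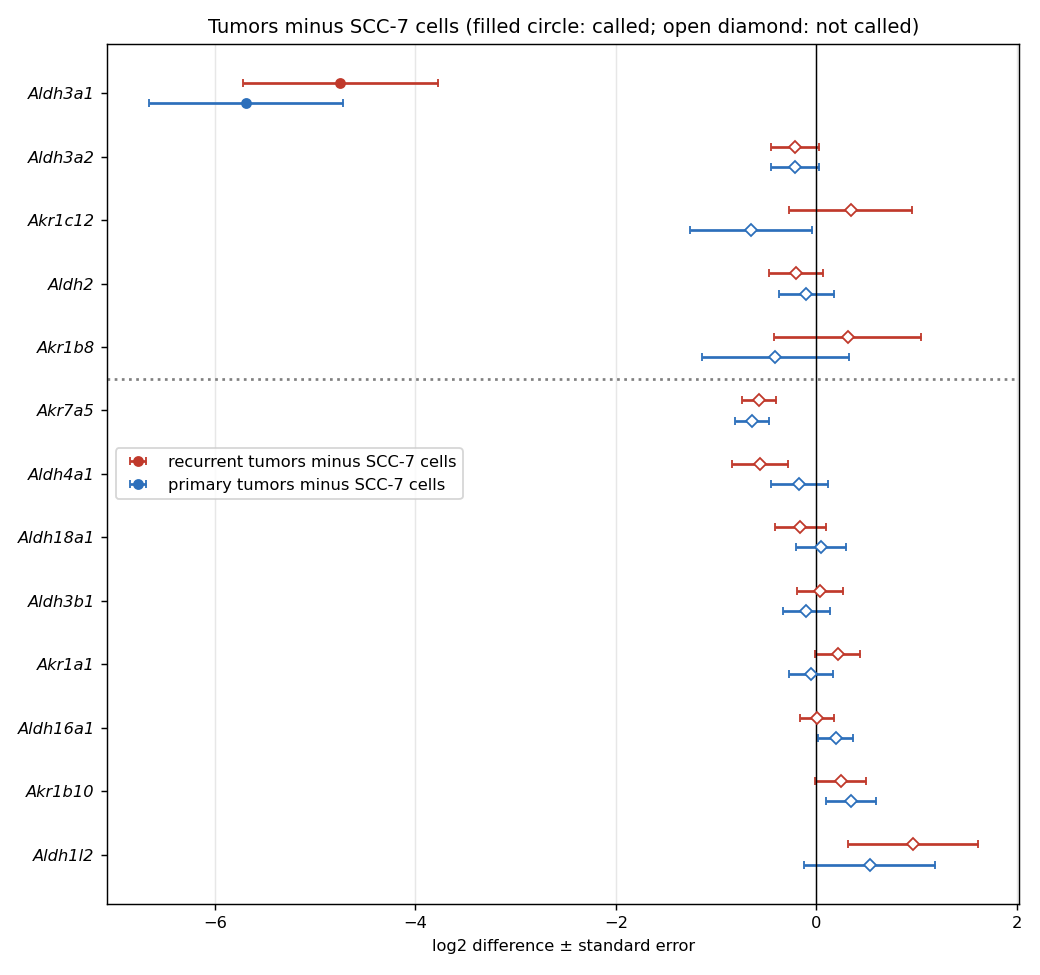
Log2 difference with its standard error between tumors and SCC-7 cells for the 5 tested members (above the dotted line) and the 8 other Aldh and Akr genes detected in both SCC-7 samples (below it), for recurrent and primary tumors. Filled circles passed both the adjusted p of 0.05 and the 2-fold cutoff, and open diamonds did not. Aldh3a1 stands at -4.75 and -5.69, and the other genes lie closer to 0.

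Of 30 written NRF2 target genes, 22 were tested. Compared with SCC-7 cells 4 were called lower and 2 higher in recurrent tumors, and 7 were called lower and 1 higher in primary tumors. Over all probes 5.02% were called lower and 6.86% higher in recurrent tumors, and 5.74% and 6.64% in primary tumors. Median differences of the list were -0.79 and -0.91 (-0.47 and -0.66 with median scaling), against -0.11 and -0.15 (0.14 and 0.089) over all probes. Nqo1, the quinone reductase often read as a marker of NRF2 activity, was lower, with 6.47 ± 0.28 in recurrent tumors (SD, n = 5), 5.98 ± 0.74 in primary tumors (SD, n = 5, detected in 4) and 10.10 ± 0.10 in SCC-7 cells (SD, n = 2). Its differences were -3.64 ± 0.41 and -4.12 ± 0.41 (SE), with adjusted p of 0.000124 and 4.86e-05 in limma. With the authors' normalized values they were -3.06 and -3.34, and with no background correction -2.93 and -3.17, and Nqo1 was called in both. All 10 tumors lay below both SCC-7 samples for Nqo1, as for Aldh3a1. Gstm1, a glutathione transferase (-2.22 and -2.07), Ephx1, an epoxide hydrolase (-1.74 and -1.65), and Osgin1 (-1.36 and -1.17) were lower in both tumor groups.

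Other genes of the same list were higher in tumors. Cbr3, a carbonyl reductase, was not above the negative controls in SCC-7 cells and lay at 8.24 to 9.35 in recurrent and 8.38 to 8.95 in primary tumors, at least 8.62-fold and 7.93-fold higher (adjusted p = 3.31e-06 and 4.7e-06 in limma). These bounds were 5.35-fold and 4.92-fold with the authors' normalized values and 4.43-fold and 4.11-fold with no background correction, and Cbr3 was called in both. Hmox1, the heme oxygenase, was called higher in recurrent tumors (2.34 ± 0.55 SE, adjusted p = 0.0134 in limma), and in primary tumors its difference was 1.70 ± 0.55 (SE, adjusted p = 0.0518 in limma, not called). The difference between the tumor groups was not called for any gene of the list.

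Of 22 written genes of retinoid metabolism and signalling, the pathway that Aldh1a1 and Aldh1a3 feed, 12 were tested. In recurrent tumors 1 was called higher and 1 lower than in SCC-7 cells, and in primary tumors 0 higher and 3 lower. Over all probes 6.86% were called higher and 5.02% lower in recurrent tumors, and 6.64% and 5.74% in primary tumors. Medians of the list were -0.30 and -0.44 (-0.05 and -0.19 with median scaling), against -0.11 and -0.15 (0.14 and 0.089) over all probes. With the 6 of 12 genes that were not detected in SCC-7 cells set at the dimmest detected probe, the medians were -0.51 and -0.70. This substitution can only raise the level in SCC-7 cells, so the lower medians come from it and are not a second estimate. Dhrs3, which reduces retinaldehyde back to retinol, differed by -1.13 in recurrent and -1.39 in primary tumors, called in both, although it was detected in only 1 tumor of each group. The receptors Rarg and Rxra were called lower in primary tumors, at -1.91 and -1.08, and had -1.37 and -0.84 in recurrent tumors, not called. Crabp2, a retinoic acid binding protein not detected in SCC-7 cells, lay at the threshold in both groups, at least 3.77-fold higher in recurrent tumors (adjusted p = 0.05 after rounding in limma, called) and at least 3.2-fold higher in primary tumors (adjusted p = 0.0681 in limma, not called). Of 8 written genes of the polyol pathway and osmotic response, to which aldose reductase belongs, 5 were tested. The glycine transporter Slc6a9 was called lower in both tumor groups (-1.72 and -1.85), and Nfat5, the osmotic transcription factor, was called lower in primary tumors (-1.17) with -0.72, not called, in recurrent tumors. In none of these lists was a gene called between recurrent and primary tumors.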

How the data were processed

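RNA was biotin-labelled for Illumina mouse WG-6 v2 arrays. Uncorrected, unnormalized mean bead intensity per probe was deposited by the authors. A table of intensity values that the authors had normalized, by a method not given in the sources used here, was an alternative. From the first table, limma 3.58.1 in R 4.3.3 gave normexp correction on 943 negative controls (offset 16, 11 bright controls left out), quantile normalization of 12 arrays and log2. Entries without a probe identifier were taken as controls, and those with a median intensity of at most 100 as the negative controls. Probes detected on at least 2 arrays were kept, 18454 of 45135. Detected probes ranged from 15406 to 16758 in recurrent tumors, 15043 to 17083 in primary tumors and 13711 to 13868 in SCC-7 cells. Precision is limited by the number of arrays.

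The contrast of recurrent and primary tumors was fitted by lmFit and eBayes and held the animal as a fixed block, since the study took both tumors from 1 animal. Across probes, the correlation of the deviations of paired tumors was -0.37 in pair 1, 0.03 in pair 2, 0.34 in pair 3, 0.36 in pair 4 and 0.17 in pair 5. Each tumor group was compared with SCC-7 cells in a fit of the 3 groups. P-values were adjusted by Benjamini-Hochberg over all kept probes and measure the spread between these samples. In the fit of the 3 groups, 1 spread is shared by all groups and comes mostly from differences between tumors. It does not measure variation between cultures of SCC-7 cells, and both tumors of an animal entered it as independent. The fit was tested on simulated data. Gene symbols came from the platform annotation (34773 probes with 1 symbol, 18 with several, 10344 with none).

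Members, gene lists and alternatives were chosen with earlier results of these arrays known. Named genes were the members, at most 4 per direction and list with the largest differences among those called against SCC-7 cells, and for 3 members the 3 genes of highest correlation. For a gene not detected in a group, the fold is a bound against the dimmest detected probe of each array of that group. The adjusted p and the call of such a gene come from the fit to its measured values and not from the bound. Alternatives were median scaling, uncorrected background, the table normalized by the authors, the tumor arrays normalized alone, other filters, variance models, blocks and thresholds. An unpaired Student's t-test and leaving out each pair or array were further ones. The study names that t-test for its independent experiments, whereas it chose its array genes by ranking within each individual. Bounds under other scalings and the alternatives for Aldh5a1, Nqo1 and Cbr3 were added after the values were seen. Figures were drawn with matplotlib 3.10.9.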

Additional observations from a re-analysis of the deposited data

Results flagged for a closer look

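Among 10 groups of 5 tumors examined, 1 held a value set apart from the others by Dixon's criterion (0.71 for 5 samples), which chance gives in about 1 of 20 groups. Aldh3a1 in recurrent tumor 4 had a log2 intensity of 7.46, and the nearest of the other recurrences had 10.28, a gap of 0.79 of the range of the group. Without recurrent tumor 4 the difference of recurrent tumors from SCC-7 cells was -4.12.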

How the results depend on the processing

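For the 5 tested genes, 208 of 208 recomputed differences moved by less than the spread between replicates. For many of them this was fixed in advance, so the count is no measure of robustness. Other filters, variance models and blocks left the fitted difference as it was. Leaving out 1 of 5 pairs cannot move the mean by more than the spread of the pairs. Likewise, leaving out 1 array cannot move the mean of its group by more than the spread of that group. A sign could still change, as for Akr1b8 in primary tumors against SCC-7 cells (-0.41, and 0.19 without primary tumor 3). Against SCC-7 cells Aldh3a1 ranged from -5.01 to -4.12 in recurrent and from -5.99 to -5.17 in primary tumors when 1 array was left out. Member probes called lower numbered 0 to 1 in recurrent tumors, 0 without either SCC-7 sample, and 1 in primary tumors throughout. Without the replicate block 0 probes were called between recurrent and primary tumors, and with the animal as a random block the contrasts with SCC-7 cells gave 1265 higher and 935 lower for recurrent tumors and 1227 higher and 1091 lower for primary tumors, so the block changed no call of a member.

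Over all probes, recurrent against primary tumors gave 0 calls, 0 to 3 with 1 pair left out (3 without pair 1) and 423 by the unpaired t-test without adjustment. For recurrent tumors against SCC-7 cells, no background correction gave 788 higher and 402 lower, median scaling 307 lower, the authors' values 419 lower, and no fold cutoff 1793 lower, and leaving out 1 array gave 561 to 1199 higher and 212 to 977 lower. For primary tumors the same settings gave 744 higher and 495 lower, 358, 517 and 1847 lower, and 527 to 1417 higher and 248 to 1155 lower. The lowest of these ranges came from leaving out an SCC-7 sample, where 1 sample stands for the group and is assumed to vary like the tumors. Aldh5a1 in recurrent tumors was called with median scaling (adjusted p = 0.0499 in limma), of 14 alternatives with adjusted p of 0.0499 to 0.276. Signals near the negative controls limit what can be said of Aldh1a1, Aldh1a3, Akr1c13 and Akr1c18.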
